A study of Saccharomyces cerevisiae with 6 samples.

Results

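The mRNAs of the large subunit of the cytosolic ribosome of Saccharomyces cerevisiae, budding yeast, were followed through 6 arrays. Members were the loci of the deposited log2 matrix whose gene symbol was RPL with a number and an optional A or B, or RPP0, RPP1A, RPP1B, RPP2A or RPP2B, the stalk proteins. Mitochondrial ribosomal proteins were not included. This gave 76 members among 5667 loci on the array, out of 81 genes of the family in the RefSeq table. The other 5 genes, RPL1A, RPL35B, RPL41B, RPL42A and RPL7B, had no probe set under their own name. Of the 76 members, 63 were measured by probe sets of their own only, 7 by their own and by a probe set that matches several genes, and 6 only by such a shared probe set (RPL1B, RPL35A, RPL41A, RPL42B, RPL4A and RPL7A). A value of those last 6 stands for the gene together with its paralogue.

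The Mex67 and Npl3 arrays held the RNA that came down with the precipitated protein after crosslinking by UV light in living cells. The no tag arrays held the RNA that came down in a control precipitation, named no tag in the labels. The groups were a strain for Mex67 (HKY1266), a strain for Npl3 (HKY157) and a control named no tag, for which the labels give a pair of strains (HKY36 and HKY381) without stating whether they were pooled. Cultures grew in rich medium (YPD) at 25 °C to log phase and then spent 30 min in fresh YPD at 42 °C or at 25 °C, so there were 6 groups with 1 array each. Both c-myc antibody beads and GFP-Trap beads appear in the protocol, and the arrays carry genes of budding yeast and of fission yeast. With 1 array per group no difference has a replicate check, and no test was made. A strain and its precipitated protein cannot be told apart here, and total RNA of the same cells was not analysed here.

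The large subunit holds the peptidyl transferase centre, which joins amino acids, and the exit tunnel, through which the new chain leaves. Most of its genes exist in budding yeast as A and B copies that stem from an ancient genome duplication, many carry an intron, and they are transcribed together under Rap1, Fhl1 and Ifh1; heat shock is known to repress them for a time. Mex67 is the main mRNA export receptor, and with Mtr2 it is also known to take part in export of the large subunit. Npl3 is an RNA-binding protein that joins transcripts early and takes part in splicing, 3′ end formation and export.

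The array columns mark the temperatures only by S and US. They were read here as 42 °C and 25 °C, and 9 heat shock genes were higher on S in 9 of 9 cases in each of the 3 precipitates. Values are log2 array values. The median over all loci lay between 11.13 and 11.18 on the 6 arrays and the brightest probe set between 15.36 and 15.43. A difference between arrays thus tells how a member stood among the mRNAs measured with it, not its amount. In a bulk precipitate fewer cells holding an mRNA, less of it per cell and less of it bound cannot be told apart. A background floor was set at the 95 percentile of the fission yeast probe sets, 4.997 to 5.12, and 75 of 76 members were above it on every array, the exception being RPL41A. Values of different members come from different probe sets and were not ranked against each other; what is compared is each member between arrays.

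In the Mex67 precipitate the large subunit mRNAs were much lower after heat. The median of the 76 members was 11.67 at 42 °C, with quartiles at 11.06 and 12.14, against 14.06 at 25 °C. The median difference was -2.38 on the log2 scale, which is 5.22-fold lower, and 71 members were at least 2-fold lower and 0 at least 2-fold higher. Among all loci tested, 12.2% were at least 2-fold lower and 15.4% at least 2-fold higher in that comparison. At least 4-fold lower were 55 members, and at least 8-fold lower were 14, with no share of all loci computed at these folds. Among the 100 loci of the array with the lowest heat difference 47 were large subunit members and 28 were small subunit members, and among the lowest 20 there were 13 and 6. On the whole array they were 76 and 53 of 5667 loci. The 5538 loci that encode no cytosolic ribosomal protein had a median heat difference of 0.06.

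**Figure D1:**
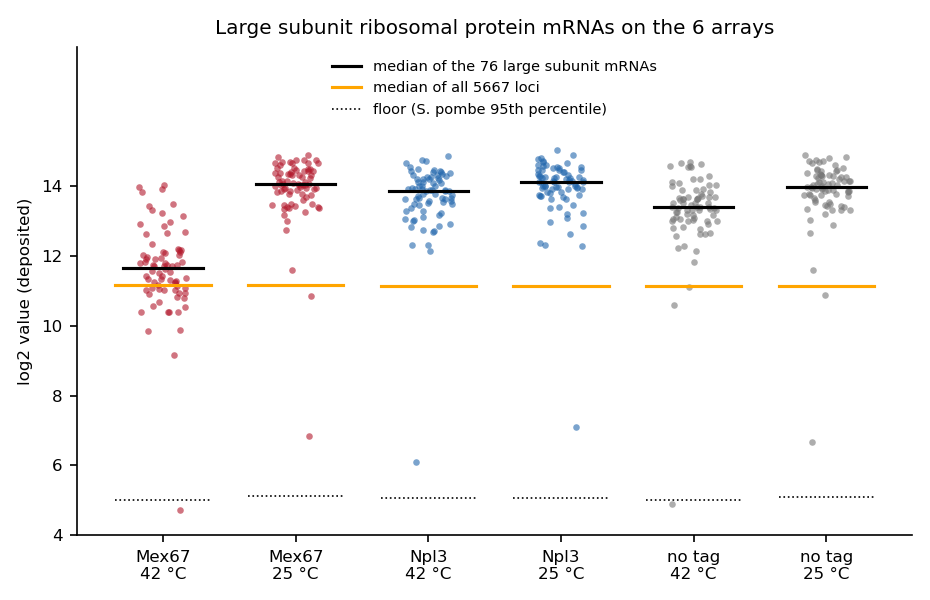
Log2 array values of the 76 large subunit members on the 6 arrays, with 42 °C left of 25 °C in each precipitate, 1 point per member, a black line at their median, an orange line at the median of all loci and a dotted line at the background floor. The heated Mex67 array has a median of 11.67, while the medians of the other 5 arrays lie between 13.40 and 14.12.

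In the other precipitates the differences were smaller. In the no tag control the member median was 13.40 at 42 °C against 13.997 at 25 °C, the median difference was -0.53, and 4 members were at least 2-fold lower and 0 higher (2.07% and 6.69% of all loci). In the Npl3 precipitate it was 13.87 at 42 °C against 14.12 at 25 °C, the median difference was -0.23, and 1 member, RPL41A by its shared probe set, was at least 2-fold lower and 0 higher (1.38% and 2.11% of all loci). Below 0 were 75 members with Mex67, 71 with Npl3 and 75 with no tag. For every one of the 76 members the Mex67 difference was lower than the no tag difference, and for 73 the no tag difference was in turn lower than the Npl3 difference. Across the members the Mex67 and the no tag heat differences had Pearson's r = 0.58 and Spearman's rho = 0.58 (n = 76, from 4 separate arrays that share the probe sets and the normalization), which is a description of these arrays.

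**Figure D2:**
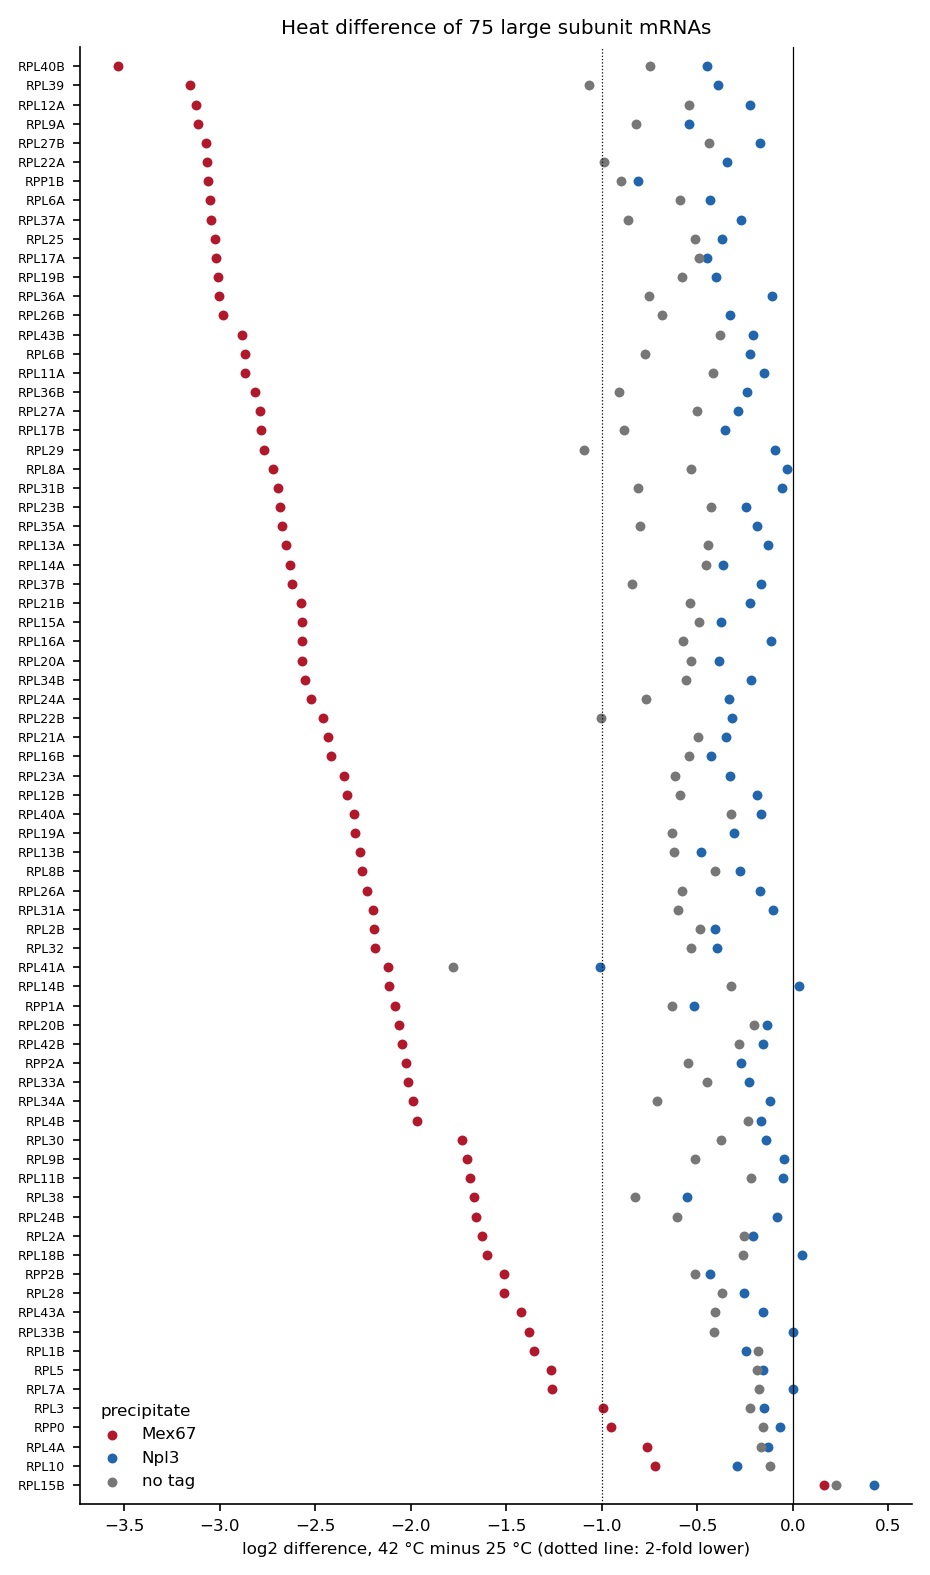
Log2 difference of 42 °C minus 25 °C for 75 of the 76 members (rows) in the Mex67, Npl3 and no tag precipitates, ordered by the Mex67 difference; the dotted line marks 2-fold lower. The Mex67 points lie between -3.53 and 0.16, left of the no tag point in all 75 rows drawn.

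Among the members at the low end of the Mex67 heat difference were RPL40B, RPL39 and RPL12A. RPL40B encodes the same ribosomal protein as RPL40A, made as a fusion to ubiquitin from which it is cut. It stood at 9.87 at 42 °C against 13.40 at 25 °C with Mex67, at 13.67 against 14.12 with Npl3, and at 12.65 against 13.40 with no tag. Only the heated Mex67 array was far below the rest, and the differences were -3.53, -0.45 and -0.75. RPL39 encodes a very small protein that lines the exit tunnel. Its values were 9.86 at 42 °C against 13.01 at 25 °C with Mex67, 12.70 against 13.09 with Npl3, and 11.82 against 12.88 with no tag. RPL39 was therefore also among the lowest members in the control, at -1.06, with a Mex67 difference of -3.16. RPL12A, which encodes a protein at the base of the stalk, was at 10.81 at 42 °C against 13.93 at 25 °C with Mex67, a difference of -3.12.

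At the high end, among members with a probe set of their own, were RPL15B, RPL10, RPP0 and RPL3. RPL15B was the 1 member that was not lower after heat in any precipitate, at 11.03 at 42 °C against 10.87 at 25 °C with Mex67, at 12.72 against 12.30 with Npl3 and at 11.12 against 10.90 with no tag. The differences were 0.16, 0.43 and 0.23. RPL10, whose protein is among the last to join the particle, in the cytoplasm, was at 14.04 at 42 °C against 14.76 at 25 °C with Mex67, at 14.02 against 14.31 with Npl3 and at 14.58 against 14.70 with no tag. Its differences were -0.72, -0.29 and -0.12. RPP0, the stalk base to which the other P proteins bind, was at 13.94 at 42 °C against 14.89 at 25 °C with Mex67, a difference of -0.95. RPL3, whose protein lies close to the peptidyl transferase centre, was at 13.84 at 42 °C against 14.84 at 25 °C with Mex67, a difference of -0.99.

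The members with the smallest differences were in part those with array values near the top of the scale. The 12 members with a mean 25 °C value of at least 14.5 had a median Mex67 heat difference of -1.31, and the 64 members below it one of -2.57. Whether saturation takes part in this was not tested. At the same array values the medians of other genes were nearer to 0. With mean 25 °C values from 14 to 14.5 the 32 members had a median of -2.50 and 41 loci outside the ribosomal proteins one of -0.24. Of these 41 loci 7 were at least 2-fold lower and 0 higher, against 12.2% and 15.4% of all loci, and all 32 members were lower. From 14.5 upwards the 12 members had a median of -1.31, with 8 lower, and 20 other loci one of 0.04, with 0 lower or higher.

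By role, the exit tunnel members showed the lowest median with Mex67, -2.69. At least 2-fold lower were 12 of 13, a share near that of the family, 71 of 76. Most tunnel members carry a coding intron, and members with an intron had a median of -2.57, so role and intron were not told apart here. The 5 members known to join in the cytoplasm had a median of -2.30, the 5 stalk proteins -2.02 and the 3 partners of 5S ribosomal RNA -1.69. The stalk recruits the translation factors that hydrolyse GTP. RPP1A was at 11.82 at 42 °C against 13.91 at 25 °C with Mex67, RPP1B at 11.07 against 14.13, RPP2A at 12.66 against 14.68 and RPP2B at 12.91 against 14.42. Their Mex67 differences were -2.08, -3.06, -2.02 and -1.51, so the paired P proteins were all lower by more than RPP0. In the Npl3 precipitate RPP1B and RPP1A were among the 4 lowest members with probe sets of their own, at -0.81 and -0.52. Among the 5S RNA partners, RPL5 was at 13.48 at 42 °C against 14.75 at 25 °C with Mex67 and RPL11A at 11.10 against 13.97. These proteins enter the particle together, and their differences were -1.27 and -2.87.

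The 11 single-copy members had a median Mex67 heat difference of -1.67, and 8 were at least 2-fold lower, against -2.46 and 63 of 65 members with a paralogue. Their median value with Mex67 at 25 °C was also higher, at 14.67 against 14.05. Copy number and array value were therefore not told apart here. RPL25, where the signal recognition particle docks at the tunnel exit, was at 11.03 at 42 °C against 14.06 at 25 °C. RPL28 was at 13.16 against 14.67, RPL32 at 12.35 against 14.53 and RPL38 at 11.74 against 13.41. The single-copy genes thus spread over most of the range of the family. RPL30, whose protein is known to bind its own transcript and block its splicing, was at 12.97 at 42 °C against 14.71 at 25 °C with Mex67, at 14.75 against 14.89 with Npl3 and at 14.22 against 14.60 with no tag. RPL29 was at 10.41 at 42 °C against 13.18 at 25 °C with Mex67, at 13.90 against 13.99 with Npl3 and at 12.23 against 13.32 with no tag. It was the lowest in the control among members with a probe set of their own, at -1.09. RPL41A on its shared probe set was at -1.78, from a 42 °C value below the floor. RPL29 was among the nearly level members with Npl3, at -0.09.

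Members with an intron in the coding region (50) had a median Mex67 heat difference of -2.57, and each of the 50 was past 2-fold lower; the 26 without one had a median of -1.996, with 21 past that fold. Gene structure is not in the RefSeq table used here, so the split rests on general knowledge of the yeast annotation. Both groups contain short and long genes, and the part of length was not tested in the split. Among the 26 intron-free members the no tag heat difference had r = 0.83 and rho = 0.78 with log2 coding length. The Mex67 difference had r = 0.32 and rho = 0.39, and both are descriptions over genes of the same arrays. The shortest member, RPL41A, was below the floor at 42 °C with no tag (4.90) and with Mex67 (4.72). Neither r was computed without it.

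Most RPL paralogues encode identical or nearly identical proteins. Of 35 A and B families, RPP1 and RPP2 included, 29 had probe sets of their own for both copies. Both copies were at least 2-fold lower with Mex67 after heat in 28 pairs, and 1 copy in 1 pair. The absolute difference between the A and B heat differences had a median of 0.515, with a range from 0.127 to 2.73, and the median over all 1653 combinations of the same 58 genes was 0.506. By these medians of the Mex67 heat difference, the copies of a pair lay about as far from each other as any 2 of the 58 genes. For the no tag heat difference the medians were 0.161 for pairs and 0.187 for all combinations, and with Npl3 0.209 and 0.166. Other comparisons differed. For Npl3 minus no tag the pairs were closer, at 0.307 against 0.482 at 25 °C and 0.421 against 0.608 at 42 °C. For Mex67 minus no tag at 42 °C they were further apart, at 0.699 against 0.510. In the Mex67 heat difference the A copy was the lower in 19 pairs and the B copy in 10.

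The pair furthest apart was RPL15. RPL15A was at 11.81 at 42 °C against 14.38 at 25 °C with Mex67, at 13.58 against 13.96 with Npl3 and at 13.90 against 14.39 with no tag, differences of -2.57, -0.38 and -0.49. The RPL15B differences of 0.16, 0.43 and 0.23 had the opposite sign in all 3 precipitates. Next among the pairs described were RPL43, RPL9, RPL11 and RPL40. RPL43A was at 13.24 at 42 °C against 14.66 at 25 °C with Mex67, and RPL43B at 11.10 against 13.98, differences of -1.42 and -2.88. RPL9A was at 10.95 at 42 °C against 14.06 at 25 °C, and RPL9B at 11.04 against 12.74, differences of -3.11 and -1.70. RPL11A differed by -2.87 and RPL11B by -1.58, and RPL40A by -2.30 and RPL40B by -3.53. RPL40A was at 12.03 at 42 °C against 14.32 at 25 °C with Mex67, at 14.504 against 14.67 with Npl3 and at 14.01 against 14.33 with no tag. The direction between copies was thus not the same in all pairs.

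The closest pair was RPL21, with -2.70 for RPL21A and -2.58 for RPL21B. RPL16A and RPL16B were at -2.57 and -2.42, RPL2A and RPL2B at -2.04 and -2.19, and RPL14A and RPL14B at -2.63 and -2.46. RPL6A and RPL6B were at -3.05 and -2.87, and RPL36A and RPL36B at -3.003 and -2.81. In the 7 members with both kinds of probe set, the shared probe set gave a Mex67 heat difference between -2.84 and -1.22 and the own probe set one between -2.70 and -1.47. Both kinds were at least 2-fold lower in all 7. The furthest apart were RPL2A, -2.04 on its own and -1.22 on the shared probe set, and RPL14B, -2.46 and -1.78.

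**Figure D3:**
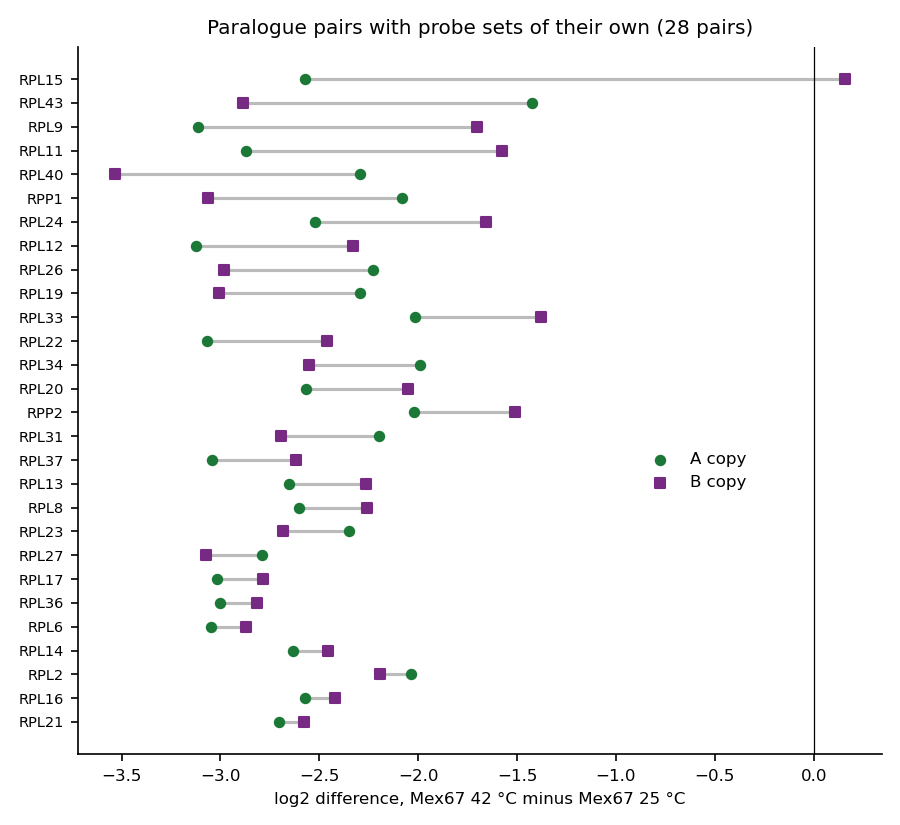
Log2 difference of Mex67 at 42 °C minus 25 °C for the A copy (circles) and the B copy (squares) of 28 of the 29 paralogue pairs with probe sets of their own, ordered by the distance between the copies. RPL15 is furthest apart, at -2.57 and 0.16, and RPL21 closest, at -2.70 and -2.58.

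Among the mRNAs measured with them, the large subunit mRNAs stood about as high with Mex67 as with no tag at 25 °C. At 42 °C they stood well lower with Mex67 than with no tag. At 25 °C the median of Mex67 minus no tag was 0.06, with a range from -0.22 (RPL4B) to 0.44 (RPL31B), and 0 members were at least 2-fold apart (0.657% of all loci were lower and 0.746% higher). RNA bound to Mex67 and RNA carried over without binding were not told apart in this comparison. At 42 °C the median was -1.69, and 65 of the 75 members tested were at least 2-fold lower and 0 higher (5.79% and 6.97% of all loci). The member closest to the control was RPL15B, at -0.09, and RPL40B was among the furthest, at -2.78. Setting the heat difference with Mex67 against that of the control gave a median of -1.79, 68 members at least 2-fold lower and 0 higher (5.4% and 5.06% of all loci).

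**Figure D4:**
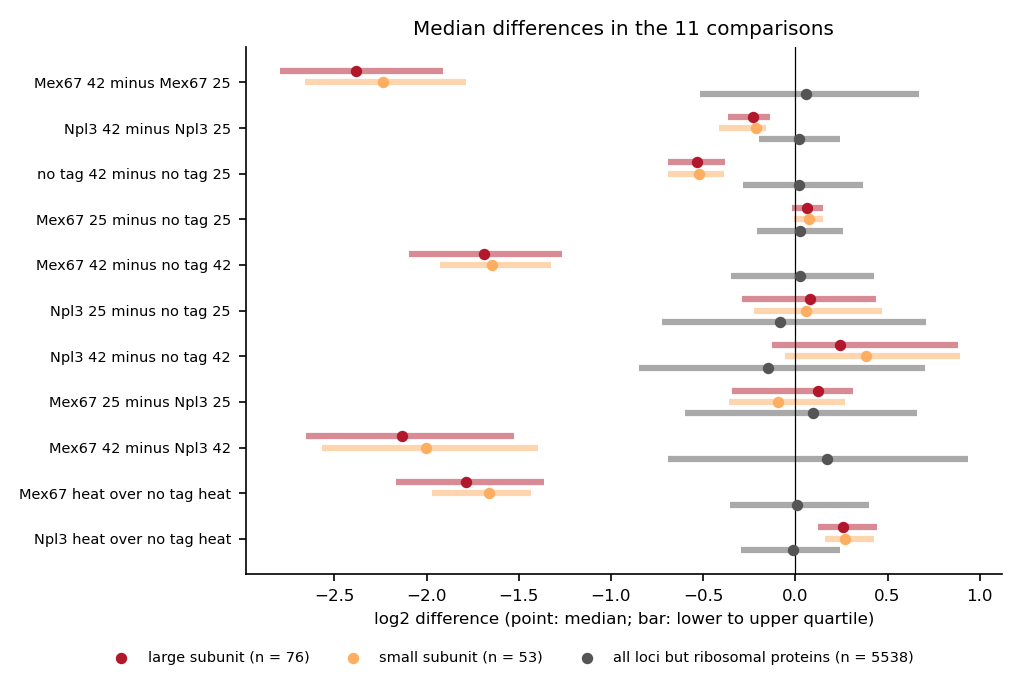
Median log2 difference of the large subunit members, the small subunit members and the loci of no ribosomal protein in the 11 comparisons, with a bar between the lower and the upper quartile. Large and small subunit medians are of like size for Mex67 after heat, at -2.38 and -2.24, where the other loci have 0.06.

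The small subunit mRNAs lay near the large subunit mRNAs in these comparisons, and at 25 °C the medians of Mex67 minus Npl3 differed in sign, at 0.12 for the large and -0.09 for the small subunit. The 76 large and 53 small subunit members had medians of -2.38 and -2.24 for Mex67 after heat, of -0.23 and -0.21 for Npl3 and of -0.53 and -0.52 for no tag. For Mex67 minus no tag at 42 °C they were -1.69 and -1.65. No difference between the subunits was tested, since each comparison rests on single arrays.

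Against the no tag control, Npl3 had members on both sides of 0, spread less widely than the loci of the array as a whole. The lower quartile at 25 °C was -0.29 for the members and -0.71 for all loci, and the upper quartile 0.44 and 0.70. At 25 °C the median of Npl3 minus no tag was 0.08, which was -0.43 after removal of the trend with gene length, and 1 member was at least 2-fold lower and 4 were higher (15.1% and 18.1% of all loci). At 42 °C the median was 0.24, which was -0.23 after removal of that trend, and 1 member was lower and 14 higher (19.4% and 18.7% of all loci). With the trend removed the counts were 11 lower and 0 higher at 25 °C, and 10 lower and 3 higher at 42 °C. Shares of all loci were not computed with the trend removed, so these counts have no background beside them. Length in that trend is the RefSeq gene span, which for members with an intron is longer than the mRNA. Before its removal both shares of members lie at or below those of all loci. The values at the 2 temperatures went together across members, with r = 0.96 and rho = 0.96 (n = 76, from 4 separate arrays of the same strains), so the order of the members was nearly the same on both occasions.

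RPL22B, RPL29, RPL34A and RPL15B were the highest at 42 °C. RPL22B, whose protein is known to bind its own transcript, was at 12.31 with Npl3 against 10.60 with no tag at 42 °C, and at 12.63 against 11.61 at 25 °C. RPL34A was at 14.44 against 12.84 at 42 °C and at 14.56 against 13.55 at 25 °C. RPL15B was at 12.72 against 11.12 at 42 °C and at 12.30 against 10.90 at 25 °C, and RPL15A at 13.58 against 13.90 and at 13.96 against 14.39, so the copies of RPL15 stood on opposite sides of the control. RPL26A, a tunnel protein, was at 15.05 with Npl3 against 13.99 with no tag at 25 °C. At the low end RPL4B, which encodes a long protein that reaches into the tunnel, was at 12.16 with Npl3 against 13.26 with no tag at 42 °C, and at 12.33 against 13.49 at 25 °C. RPL3, RPL10 and RPP0 were lower too at 42 °C, with differences of -0.65, -0.56 and -0.48.

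Differences between Npl3 and no tag went with gene length. Among the 26 members without intron, Npl3 minus no tag had r = -0.58 and rho = -0.66 with log2 coding length at 42 °C, and r = -0.47 and rho = -0.59 at 25 °C. At 42 °C the 7 members shorter than 400 bp had a median of 0.21, the 8 from 400 to 600 bp one of 0.68, the 7 from 600 to 900 bp one of -0.14 and the 4 of at least 900 bp one of -0.60. At 25 °C the medians were -0.07, 0.42, -0.33 and -0.65. RPL41A, the shortest of the 26 members, was below the floor with no tag at 42 °C. Npl3 arrays also stood apart in the actin control probe sets, where 3′ minus 5′ was 1.10 at 42 °C and 1.35 at 25 °C, against 0.56 and 0.53 for no tag, and the part of RNA quality in these differences was not tested.

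**Figure D5:**
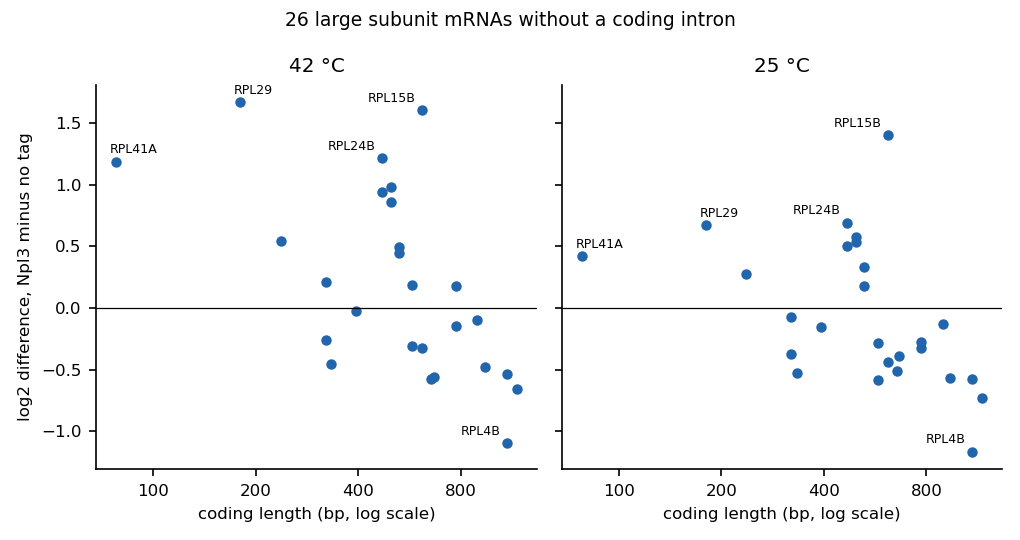
Log2 difference of Npl3 minus no tag at 42 °C and at 25 °C against coding length in bp (log axis) for the 26 members without an intron in the coding region, 1 point per member. The 4 longest members have medians of -0.60 at 42 °C and -0.65 at 25 °C, and RPL15B stands at 1.60 and 1.40.

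Between the tagged strains, Mex67 minus Npl3 had a median of 0.12 at 25 °C, with 3 members at least 2-fold lower and 0 higher (15.2% and 12.1% of all loci). At 42 °C the median was -2.13, and 67 members were at least 2-fold lower and 0 higher (20.2% and 22.5% of all loci). After removal of the length trend the medians were 0.49 at 25 °C, with 0 lower and 11 higher, and -1.58 at 42 °C. No share of all loci was computed for these counts. RPL40B was the furthest at 42 °C, at -3.80, and RPL10 was the 1 member above 0, at 0.03. The Npl3 heat difference minus that of the control had a median of 0.26 and a range from -0.17 (RPL10) to 0.999 (RPL29), with 0 members at least 2-fold lower or higher (4.3% and 1.13% of all loci). Above 0 were 73 of 76 members.

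The heated Mex67 array also differed from the unheated one in the control probe sets. The spike-in probe sets (36) had a median of 5.01 at 42 °C against 6.35 at 25 °C, and the ribosomal RNA probe sets (21) one of 13.51 against 14.49. The no tag arrays had 6.64 against 6.65 and 14.27 against 14.53, and the Npl3 arrays 5.40 against 5.22 and 13.82 against 13.56. Actin 3′ minus 5′, a sign of RNA quality, was 0.80 at 42 °C against 0.55 at 25 °C with Mex67 and 0.56 against 0.53 with no tag. In the Mex67 pair the ribosomal RNA moved in the same direction as the ribosomal protein mRNAs, and the part of these control probe sets in the result was not tested.

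Genes that act around the large subunit were given by lists made for this work. Chaperones of single ribosomal proteins and factors of the nascent chain (12 genes) had a Mex67 heat median of -0.95, with 5 at least 2-fold lower and 0 higher, where 12.2% of all loci were lower and 15.4% higher. The 5 were EGD1 and EGD2, the nascent polypeptide-associated complex, at -1.81 and -2.07, ZUO1 and SSZ1, the ribosome-associated complex, at -1.73 and -1.12, and RRB1, the chaperone of Rpl3, at -1.12. In the no tag control EGD1, EGD2 and ZUO1 were at -0.96, -1.10 and -1.01, SSZ1 at -0.55 and RRB1 at -0.24. Over the no tag heat difference the Mex67 median of the list was -0.56, and 0 of 12 were at least 2-fold lower. Export and late maturation factors (14 genes measured) had a median of -0.76, with 5 at least 2-fold lower and 0 higher. These were ECM1 at -2.22, YVH1, a phosphatase needed for stalk assembly, at -1.61, SDO1 at -1.36, RRS1, which brings in the 5S RNA particle, at -1.27, and NMD3, the export adaptor, at -1.11. Their no tag differences lay between -0.91 (ECM1) and -0.13 (NMD3), and over the no tag heat difference the median of the list was -0.45, with 1 of 14 at least 2-fold lower, ECM1 at -1.31. MTR2, the partner of Mex67, was at 0.08. Regulators of the ribosomal protein genes (12 genes) had a median of 0.37, with 0 at least 2-fold lower and 1 of 12 higher, a share below that of all loci. That gene was CRF1, the corepressor that acts with Fhl1, at 1.55 with Mex67, 0.84 with Npl3 and 1.20 with no tag. The activators IFH1 and RAP1 were at 0.73 and 0.93 with Mex67 and at 0.45 and 0.23 with no tag. With Mex67, UTP22 and RRP7 were below 0, at -0.68 and -0.35, and the other 10 genes above it. Over the no tag heat difference the median of the list was 0.25, with 0 of 12 at least 2-fold lower or higher.

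In 2 cases members neighbour each other on a chromosome. RPL24A and RPL30 on chromosome VII are transcribed away from each other, and their Mex67 heat differences were -2.52 and -1.73. RPL13A and RPP1A on chromosome IV are transcribed towards each other and were at -2.65 and -2.08.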

How the data were processed

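The Mex67 and Npl3 arrays held RNA that came down with the precipitated protein after crosslinking, and the no tag arrays what came down in the control precipitation. The authors deposited normalized log2 values per probe set. The R package affy is named per the submitters' processing notes, with version, background correction, normalization and summary not given in the sources used here. Both a 3′ kit and a whole-transcript labelling manual are named in the labels. Probe sets were averaged per locus (10928 probe sets, 5716 of S. cerevisiae) and 5646 loci were named through the RefSeq table, assembly R64. A comparison is a difference of log2 values; at least 2-fold means a log2 difference of at least 1, for loci above the floor on at least 1 of the arrays compared. With 1 array per group there is no test. Named members are the 4 lowest and 4 highest per comparison with probe sets of their own, the stalk proteins, RPL40A and RPL40B, single-copy members and the 6 most and 6 least distant pairs. RefSeq gene span was taken as coding length only without an intron. The members and lists were chosen with earlier results of these data known. The calculations, checked on simulated data, used Python 3.11.15, pandas 2.3.3, numpy 2.4.6, scipy 1.17.1 and statsmodels 0.14.6. Alternatives were other centring, a floor, own probe sets, a 1.5-fold threshold and removal of a length or a level trend (lowess, fraction 0.3). Promoter motifs and sequences are not analysed here. Values of 1 member and of its pair are not reported here; the counts and medians include them.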

Additional observations from a re-analysis of the deposited data

How the results depend on the processing

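The cause of the changes below was not tested. Of 66 medians recomputed, 65 moved by less than the spread of background probe sets, and 175 of 198 counts kept within 1.5 times. That spread, 0.44 to 0.64, is the 95 percentile of absolute differences of single fission yeast probe sets. It is wide for a median over members, so a median near 0 could change sign and count as unmoved. With the length trend removed, the Npl3 minus no tag medians did so at both temperatures. A count that stayed at 0 was also taken as kept. The Mex67 heat median lay between -2.49 and -2.17. With the length trend removed, the Mex67 minus Npl3 median at 42 °C was -1.58 in place of -2.13. RPP1A in that comparison turned to 0.35, against -1.03. With the length trend removed, Npl3 minus no tag had 11 members at least 2-fold lower and 0 higher at 25 °C, and 10 lower and 3 higher at 42 °C. Mex67 minus Npl3 at 25 °C then had 0 lower and 11 higher, no tag heat 2 lower, and the Npl3 heat difference over that of no tag 2 higher. At a 1.5-fold threshold the lower and higher counts were 4 and 12 for Npl3 minus no tag at 25 °C, 2 and 26 at 42 °C, and 8 and 5 for Mex67 minus Npl3 at 25 °C, with 28 lower for no tag heat, 2 lower for Npl3 heat and 12 higher for Npl3 heat over no tag heat. The 1 member lower after heat with Npl3 was 0 with centring on S. cerevisiae probe sets, with own probe sets only and with the floor at the median. Centring gave 1 higher for Npl3 heat over no tag heat, and removing the level trend 1 higher there and 1 lower for Mex67 minus Npl3 at 25 °C. The counts in these alternatives are of members only, and shares of all loci were not computed for them. The median distance between paralogues was 0.565 over 30 pairs that include a shared probe set, 0.515 over 29 with own probe sets and 0.549 after removal of the level trend. No paired analysis was possible because each group had 1 array and the labels give no replicate numbers.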

Other observations

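The array also carries probe sets designed for fission yeast, a species not in the samples. Of the 86 titled as 60S ribosomal proteins, 10 (11.6%) were above the floor on all 6 arrays, against 139 (2.78%) of all 4999 fission yeast probe sets. The brightest, for L13, was at 5.92 at 42 °C against 6.92 at 25 °C with Mex67, at 6.28 against 6.38 with Npl3 and at 6.27 against 7.01 with no tag.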
